A study of Mus musculus with 14 samples.

Results

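Acetate-treated Th17 cultures were compared with untreated Th17 cultures, 3 arrays of each kind out of 14 arrays in the study. The arrays were taken by their labels, and the comparison covered every probe set with exactly 1 gene symbol. The cells were CD4 T cells taken from mouse spleen, peripheral lymph nodes and mesenteric lymph nodes. The acetate cultures received acetate at 10 mM, and the control cultures received none. All 6 Th17 cultures shared human IL-2 at 100 U/ml, human TGF-β1 at 5 ng/ml, mouse TNF-α and IL-6 at 20 ng/ml each, mouse IL-1β, IL-21 and IL-23 at 10 ng/ml each, and antibodies that neutralise IL-4 and IFN-γ. Culture lasted 5 days by the protocol, whereas the design text states 6 to 7. Acetate and control cultures of Treg cells (IL-2 with TGF-β1) and of Th1 cells (IL-2, IL-12 at 10 ng/ml and an antibody to IL-4), 2 arrays of each kind, served to show where the Th17 response differed. For the treated cultures of these other subsets the treatment protocols write acetone, while the design text has acetate. No source used here gives a strain, age or sex, or states if replicate arrays stem from different mice or dishes. The p-values thus measure the spread between these arrays only, which may be technical.

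Acetate is the most abundant short chain fatty acid that bacteria release in the gut. Inside cells it can be joined to coenzyme A and so feed lipid synthesis, the citric acid cycle and the acetylation of histones and other proteins. Th17 cells are helper T cells that secrete IL-17A, guard mucosal surfaces and drive inflammation in several models of autoimmunity. IL-6 with TGF-β favours their formation, whereas TGF-β with IL-2 favours regulatory T cells marked by the transcription factor FOXP3.

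Values below are normalised signals in the units of the deposited array intensities, and a log2 difference is acetate minus control on the log2(signal + 3) scale, ± SE. That scale understates the change of dim genes. A gene passed the test at an adjusted p under 0.05 in limma, with Benjamini-Hochberg adjustment over 10916 genes. Only genes that passed are said to have risen or fallen. The 3 acetate arrays correlated with each other at 0.944 to 0.968 across genes, the 3 control arrays at 0.975 to 0.983, and acetate with control arrays at 0.901 to 0.941. The first principal component of the 6 arrays held 57.2% of the variance and separated acetate from control. The second, with 19.9%, set acetate replicate 1 apart from acetate replicates 2 and 3. The 3′ to 5′ signal ratio of the beta-actin control probes, a sign of RNA integrity, was 1.21, 1.38 and 1.32 on the acetate arrays and 1.20, 1.24 and 1.21 on the control arrays. The Gapdh ratio overlapped, at 1.08, 1.03 and 0.992 on the acetate arrays and 0.986, 1.07 and 1.03 on the control arrays. The part of these ratios in the results was not tested.

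Acetate moved 2217 genes, 20.3% of those tested. Of these, 1255 genes (11.5% of those tested) rose and 962 (8.81%) fell. The median size of the change was 1.01 log2 units among genes that rose and 0.85 among genes that fell. A change of more than 2 log2 units was found in 116 genes that rose and 34 that fell. In 2321 genes (21.3%) all acetate arrays lay above all control arrays, and in 2146 genes (19.7%) all lay below. The number of calls depended on single arrays. It was 820 higher and 595 lower without acetate replicate 2. Without control replicate 1 it was 802 and 543, without control replicate 2 839 and 581, and without control replicate 3 837 and 519. On the signals as deposited, whose trimmed means ranged from 65.9 to 116.0 over the 6 arrays, 467 genes passed higher and 1461 lower, and the median difference of all genes was -0.29. After quantile normalisation, used for the gene values given here unless another scaling is named, the median difference was near 0. The ratios of the control probes above were taken from the signals as deposited. Counts of list members below are set against the shares of 11.5% and 8.81%.

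**Figure D1:**
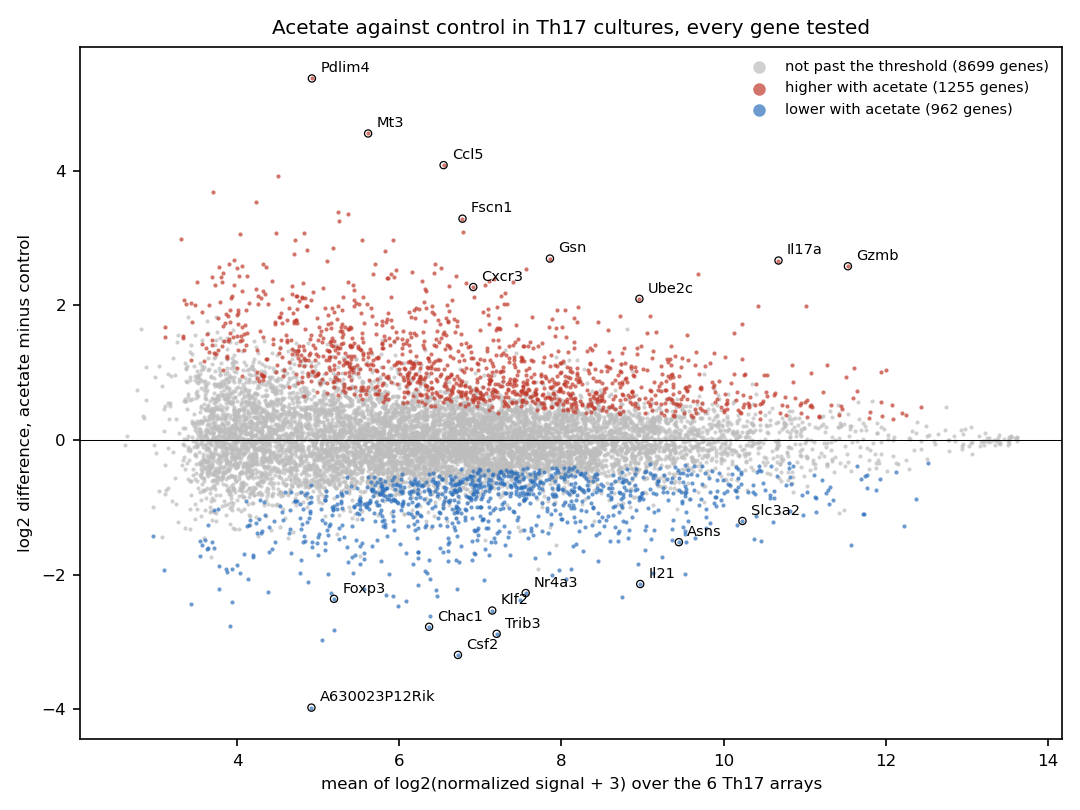
Log2 difference between acetate and control (vertical axis) against the mean log2(normalised signal + 3) of the 6 Th17 arrays (horizontal axis) for 10916 genes. Red points are the 1255 genes that rose, blue points the 962 that fell and grey points the rest. Pdlim4, at 5.37, lies at the top and A630023P12Rik, at -3.98, at the bottom.

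Cytokine mRNA in the cultures shifted in both directions, and secreted protein was not measured. Of 21 secreted cytokine genes 4 rose (19%, against 11.5% of all genes) and 6 fell (28.6%, against 8.81%). The list median was 0.02, and 4 fell without any 1 acetate array. Il17a, the cytokine that defines the subset, had signals of 4184, 5370 and 3126 on the acetate arrays, against 713, 638 and 597 on the control arrays. It rose by 2.67 ± 0.30 log2 units (adjusted p = 0.000166), with every acetate array far above every control array. In control cultures of the other subsets Il17a was at 1.40 and 7.55 (Treg) and 6.76 and 11.2 (Th1), far under all Th17 arrays. Csf2 encodes GM-CSF, the cytokine of pathogenic Th17 cells, and moved the other way. Its signals were 29.6, 30.0 and 36.5 with acetate and 269, 311 and 379.7 in control cultures, a difference of -3.19 ± 0.52 (adjusted p = 0.00138). Foxp3, the lineage factor of regulatory T cells, fell to 14.1, 7.77 and 19.9 with acetate, against 85.1, 55.7 and 108 in control cultures (-2.36 ± 0.30, adjusted p = 0.000301). The groups did not overlap for any of these 3 genes, as for 21.3% (above) and 19.7% (below) of all genes tested. Csf2 and Foxp3 were named partly for this trait, so it adds no support. In these bulk samples a change in the share of cells that express a gene and a change in its RNA per cell cannot be told apart.

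Il9 rose to 879, 532 and 419 with acetate, against 139, 254 and 86.5 in control cultures (1.98 ± 0.41, adjusted p = 0.00489). Il21, an autocrine cytokine of Th17 and follicular helper cells, fell to 260.1, 192 and 264, against 911, 1052 and 1214 in control cultures (-2.14 ± 0.47, adjusted p = 0.00682). The Il21 call was lost when all probe sets of a gene were averaged (adjusted p = 0.159). Il24 rose by 1.73 ± 0.36 (adjusted p = 0.00492), and Tnfsf8, which encodes the CD30 ligand, fell by 1.99 (adjusted p = 0.00185). Cd5l, a lipid regulator described in non-pathogenic Th17 cells of mice, rose to 274, 155 and 46.0 with acetate, against 14.5, 15.5 and 25.5 in control cultures (2.62 ± 0.55, adjusted p = 0.00536). The antiinflammatory cytokine gene Il10 had signals of 1219, 571 and 718 with acetate, against 343, 213 and 216 in control cultures. Every acetate array was higher, as for 21.3% of all genes tested, but Il10 missed the threshold (1.65 ± 0.64, adjusted p = 0.0842). Il2 (-0.30 ± 0.77, adjusted p = 0.820) and Ifng (0.15 ± 0.86, adjusted p = 0.925) did not pass either. Ifng was uneven within each group, at 3149, 195 and 322 with acetate and 1253, 222 and 523 in control cultures.

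Among 13 genes of the list for pathogenic Th17 cells, 6 rose (Ccl5, Gzmb, Lrmp, Tbx21, Lgals3 and Lag3) and Csf2 alone fell. Without acetate replicate 2, acetate replicate 3 or control replicate 2, 4 rose. Of 8 genes of the non-pathogenic list 4 rose: Il9, Cd5l, Ahr and Ikzf3. Without control replicate 2 or 3 this count was 2. Ahr, the aryl hydrocarbon receptor, had signals of 519.5, 751 and 719 with acetate and 308, 287 and 287 in control cultures (1.15 ± 0.31, adjusted p = 0.0191). Its groups did not overlap, as for 21.3% of all genes tested (acetate above). The Ahr call was lost without control replicate 2 (adjusted p = 0.0593), control replicate 3 (0.0596), acetate replicate 2 (0.0702) or acetate replicate 3 (0.0527). Of the 13 Th17 transcription factor genes tested, Ahr, Ikzf3 and Batf passed higher and Irf4 and Fosl2 lower. The 5 calls were all lost without control replicate 2 or without control replicate 3. For Irf4, another probe set of the gene moved the opposite way, and its mean over probe sets was 0.25 higher with acetate.

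Of 10 receptor genes for Th17 cytokines 3 passed lower. Il21r, which binds IL-21, fell to 230.5, 241 and 235 with acetate, against 375, 397 and 441 in control cultures (-0.77 ± 0.16, adjusted p = 0.00554). Il6ra and Il12rb1 also passed lower, by 1.25 and 0.78, and both calls were lost without control replicate 2 or control replicate 3. Of 17 genes of the Treg list 6 passed lower and 1 higher. Besides Foxp3, the lower ones included Nrp1, a surface receptor of thymus-derived regulatory T cells, at 44.9, 24.4 and 44.6 with acetate and 161, 239 and 190.0 in control cultures (-2.31 ± 0.26, adjusted p = 0.000166). Without acetate replicate 2 or control replicate 1, 3 members passed lower. Itgae, the CD103 integrin chain that retains T cells in epithelia, fell by 2.62 (adjusted p = 0.0122), a call lost without acetate replicate 2 (adjusted p = 0.0527) or control replicate 1 (0.0595). Entpd1, which encodes the ectoenzyme CD39, was the member that rose (1.40 ± 0.29, adjusted p = 0.00528), a call lost when probe sets were averaged (adjusted p = 0.14).

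**Figure D2:**
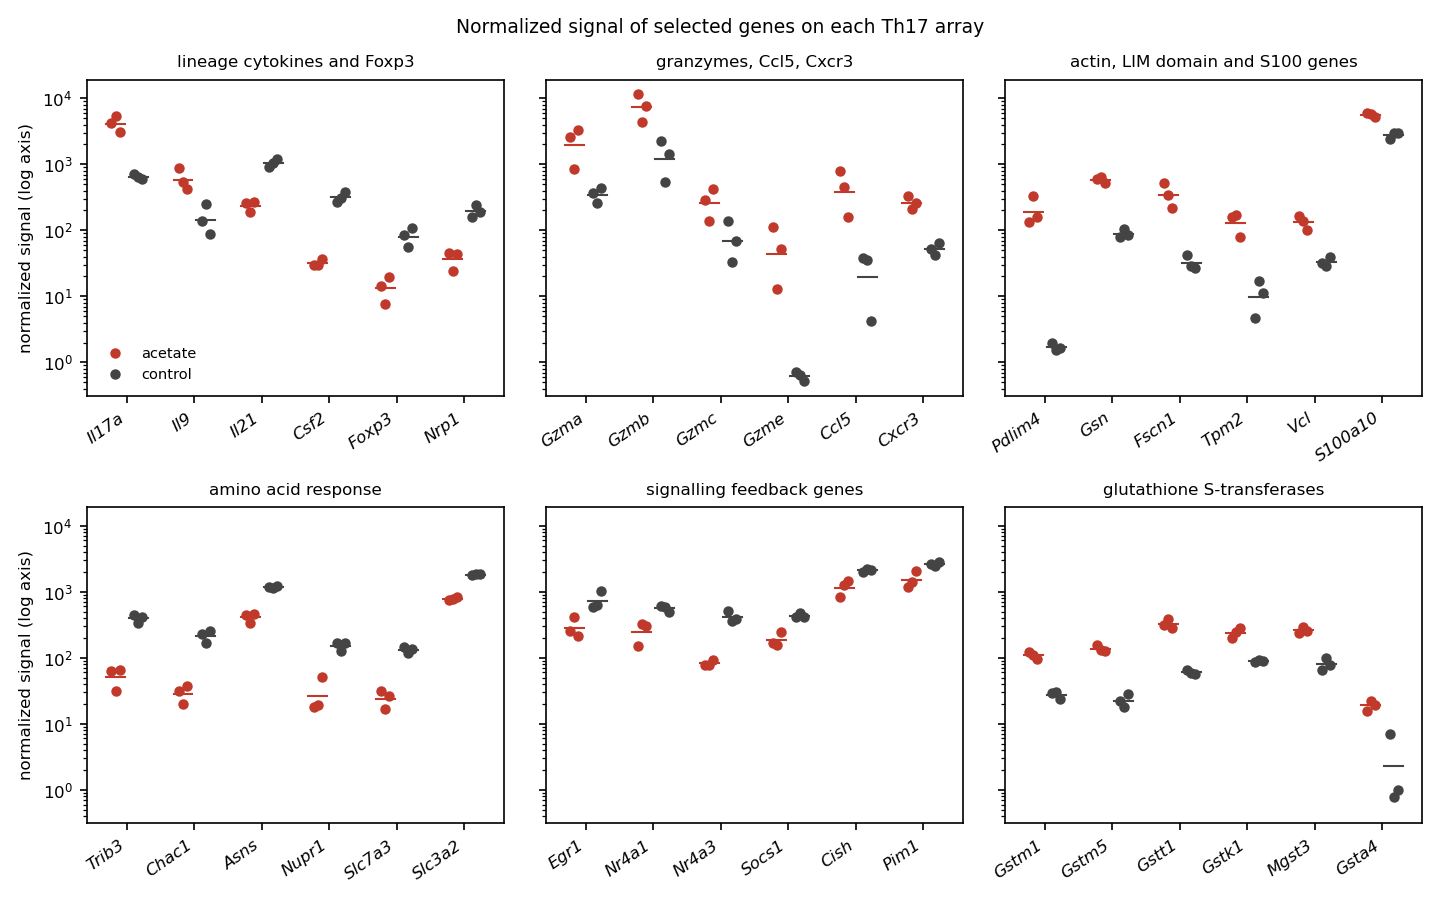
Normalised signal (log axis) of 36 genes on each of the 3 acetate arrays (red, left) and 3 control arrays (grey, right), in 6 panels by function. A short line is the mean taken on the log2(signal + 3) scale. In 35 of the 36 genes, all but Gzmc, every acetate array lies on one side of every control array. Among all genes tested, 21.3% lay wholly above and 19.7% wholly below. The genes shown were picked with these results known, some from lists limited to groups that did not overlap. The count of 35 is thus a trait of the choice and no support for a change.

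Cytotoxic genes rose in these helper T cell cultures. Of 11 genes for granzymes, perforin and their partners, 7 rose (63.6%, against 11.5% of all genes tested), with a list median of 1.85. The probe sets of Gzmd and Gzme are of a type that transcripts of similar sequence can also bind. Signal could thus cross between granzyme genes, and the 7 may not be separate measurements. Granzymes are serine proteases that cytotoxic lymphocytes deliver into target cells. Gzmb had signals of 11470, 4403 and 7569 on the acetate arrays and 2271, 538 and 1444 on the control arrays (2.58 ± 0.41, adjusted p = 0.00123). Gzma rose to 2585, 852 and 3307, against 373, 259 and 438 in control cultures (2.46 ± 0.38, adjusted p = 0.00105), and Gzmc rose by 1.85 ± 0.43 (adjusted p = 0.00899). The acetate arrays lay above all control arrays for Gzma and Gzmb, as for 21.3% of all genes tested. For Gzmc acetate replicate 2 lay level with control replicate 1. Gzme was at 114, 12.9 and 51.9 with acetate and at 0.718, 0.647 and 0.518 in control cultures, below the signal of about 9.10 that the filter used, so the size of its change (3.69 ± 0.60, adjusted p = 0.00132) depends on the pseudocount. Prf1, the pore-forming perforin, did not pass (1.29 ± 0.50, adjusted p = 0.0870), nor did Srgn, the granule proteoglycan (0.03 ± 0.11, adjusted p = 0.873).

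The chemokine gene Ccl5 and the chemokine receptor gene Cxcr3, both tied to Th1 and cytotoxic cells, rose with the granzymes. Ccl5 had signals of 782, 452 and 157 on the acetate arrays, against 38.7, 36.1 and 4.18 on the control arrays (4.08 ± 0.63, adjusted p = 0.00107). Cxcr3 had 329.9, 209 and 260.5 with acetate and 52.1, 41.9 and 63.6 in control cultures (2.27 ± 0.40, adjusted p = 0.00221). Hlx, a homeobox partner of T-bet, rose by 1.88 ± 0.40 (adjusted p = 0.00617). Tbx21, which encodes T-bet itself, was at 187, 101 and 104 with acetate and 79.0, 16.6 and 67.0 in control cultures (1.41 ± 0.43, adjusted p = 0.0367). The Tbx21 call was lost without any one of the 3 acetate arrays (adjusted p 0.111, 0.0588 and 0.0502 without replicates 1, 2 and 3), without control replicate 2 (0.102) and without either Treg control array (0.0517). Eomes, the related factor of cytotoxic cells, passed at 1.37 ± 0.43 (adjusted p = 0.0394) at signals close to background (22.6, 12.7 and 15.9 with acetate and 13.3, 0.753 and 4.20 in control cultures), a call lost without any 1 of 5 Th17 arrays or of the 4 Treg arrays (adjusted p 0.0543 to 0.153). In all, 5 of 14 Th1 genes rose (35.7%), and 3 without acetate replicate 1, acetate replicate 3, control replicate 2 or either Treg control array.

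Most genes of the amino acid response fell. When amino acids run short or the endoplasmic reticulum is stressed, cells translate the transcription factor ATF4, which induces genes for amino acid uptake, amino acid synthesis, tRNA charging and feedback on the stress itself. Of 23 ATF4 targets tested, 16 fell (69.6%, against 8.81% of all genes tested), with a list median of -0.95. The count was 14 to 17 when any 1 array was left out. The feedback pseudokinase gene Trib3 had signals of 64.1, 31.3 and 66.2 with acetate, against 448, 335 and 416 in control cultures (-2.88 ± 0.31, adjusted p = 0.000160). Chac1, an enzyme that breaks down glutathione, had 30.9, 19.7 and 37.8 with acetate and 228, 169.7 and 251 in control cultures (-2.78 ± 0.44, adjusted p = 0.00123). Asparagine synthetase, encoded by Asns, had 452, 334 and 456 with acetate and 1181, 1152 and 1209 in control cultures (-1.52 ± 0.21, adjusted p = 0.000528). In all 3 genes the highest acetate array lay below the lowest control array, as in 19.7% of all genes tested. Trib3 and Chac1 were named partly for this trait, so it adds no support. The stress protein gene Nupr1 fell by 2.40 (adjusted p = 0.000932), the secreted glycoprotein gene Stc2 by 2.47 (adjusted p = 0.000184) and the lipoprotein receptor gene Vldlr by 1.82 (adjusted p = 0.00559). Atf5, a relative of ATF4 that was not on the list, fell to 68.9, 60.3 and 106 with acetate, against 310.3, 449 and 484 in control cultures (-2.37 ± 0.29, adjusted p = 0.000268). Atf4 mRNA itself was lower, at 1427, 1841 and 2273 with acetate and 3461, 3418 and 3630 in control cultures (-0.95 ± 0.16, adjusted p = 0.00189), a call lost with the mean over its probe sets (adjusted p = 0.227). Among the members that did not pass were Ddit3, which encodes CHOP (-0.89 ± 0.41, adjusted p = 0.145), and Atf3 (0.53 ± 0.27, adjusted p = 0.177).

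The promoters of 3 of these genes that fell are shown because each holds the core of the C/EBP-ATF element, the site that ATF4 and C/EBP proteins bind. Each run is the 250 bases before the RefSeq start site on the gene's own strand (build GRCm38.p6), with the match to TGATGNAA on either strand in capitals. Asns lies on the minus strand at chr6:7693210-7693459, Chac1 on the plus strand at chr2:119350992-119351241 and Nupr1 on the minus strand at chr7:126625471-126625720.
Asns: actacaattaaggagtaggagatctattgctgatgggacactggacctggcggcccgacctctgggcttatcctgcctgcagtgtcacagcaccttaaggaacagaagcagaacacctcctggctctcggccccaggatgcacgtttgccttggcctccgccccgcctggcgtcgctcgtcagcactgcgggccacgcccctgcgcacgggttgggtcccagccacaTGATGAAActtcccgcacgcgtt
Chac1: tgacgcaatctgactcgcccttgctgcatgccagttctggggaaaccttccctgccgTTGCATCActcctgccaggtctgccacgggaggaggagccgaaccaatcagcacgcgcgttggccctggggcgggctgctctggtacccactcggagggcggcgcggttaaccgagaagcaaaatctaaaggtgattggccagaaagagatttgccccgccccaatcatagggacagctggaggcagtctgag
Nupr1: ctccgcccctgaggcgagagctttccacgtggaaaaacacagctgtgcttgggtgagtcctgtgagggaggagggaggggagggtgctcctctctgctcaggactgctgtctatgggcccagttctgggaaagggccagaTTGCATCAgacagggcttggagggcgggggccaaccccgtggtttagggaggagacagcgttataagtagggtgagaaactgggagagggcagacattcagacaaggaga
The Asns match starts 23 bases before the start site. The Chac1 and Nupr1 matches read on the opposite strand and start 193 and 110 bases before it. Among 27025 genes of the promoter table, 1056 (3.91%) held the core in this window. Of the 21 ATF4 targets with a promoter sequence, 7 held it, and among the 14 of these that fell, 5 did (35.71%). The Trib3 window held no match to these letters. The targets were listed from knowledge of this element, so these shares describe the sequences and are not evidence of binding in these cells.

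Most amino acid transporters fell too. Of 13 tested, 9 fell (69.2%), with a list median of -1.11, and 9 or 10 fell when any 1 array was left out. Slc3a2, the heavy chain that carries several light chains to the membrane, had 751, 784 and 839 with acetate and 1813, 1827 and 1832 in control cultures (-1.20 ± 0.18, adjusted p = 0.000756). Its light chain Slc7a5, the main entry route of leucine into activated T cells, had 430.2, 349 and 400.5 with acetate and 1148, 966 and 1201 in control cultures (-1.48 ± 0.35, adjusted p = 0.0102). Both were lower on every acetate array than on any control array, as were 19.7% of all genes tested. The glutamine carrier gene Slc1a5 fell by 1.41 (adjusted p = 0.00785) and the glycine carrier gene Slc6a9 by 1.67 (adjusted p = 0.00217). The cationic amino acid carrier gene Slc7a1 fell by 1.64 (adjusted p = 0.00320), and its relative Slc7a3 fell by 2.32 (adjusted p = 0.00137).

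Of 18 cytosolic aminoacyl-tRNA synthetases, the enzymes that load amino acids onto tRNA, 8 fell (44.4%), 1 rose and 9 did not pass. The members that fell included Eprs, at 443, 263 and 326 with acetate and 805, 779 and 889 in control cultures (-1.28 ± 0.20, adjusted p = 0.00107), and Wars (-1.28 ± 0.24, adjusted p = 0.00337). Aars and Gars fell by 0.94 (adjusted p = 0.00175) and 0.84 (adjusted p = 0.00745). Without control replicate 3 the count of members that fell was 5. The member that rose was the glutamine enzyme gene Qars (0.53 ± 0.14, adjusted p = 0.0176), a call lost without acetate replicate 1, acetate replicate 2 or control replicate 1. Genes of ribosome biogenesis, which supply the translation machinery itself, had a median of -0.77, and 8 of 25 passed lower (32.0%). That count was 3 without acetate replicate 2 or any 1 of the control arrays, 5 without acetate replicate 3 and 15 on the signals as deposited. Utp20, a processing factor of ribosomal RNA, fell to 69.4, 57.3 and 41.2 with acetate, against 151, 181 and 157 in control cultures (-1.52 ± 0.31, adjusted p = 0.00500). Myc, a driver of ribosome production, passed at -0.77 ± 0.22 (adjusted p = 0.0289), a call lost without acetate replicate 2 or 3 or any 1 of the control arrays (adjusted p 0.0643 to 0.0904).

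**Figure D3:**
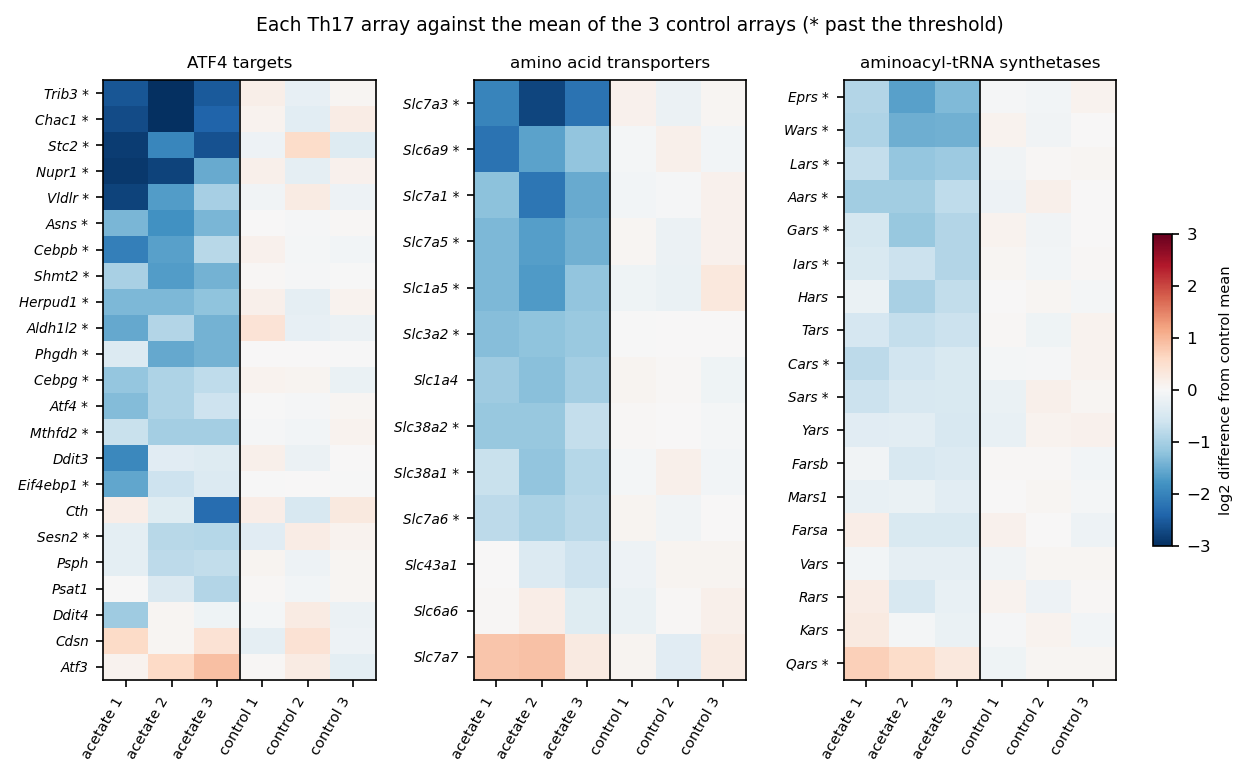
Log2 difference of each Th17 array (acetate 1 to 3 left, control 1 to 3 right) from the mean of the 3 control arrays, for the tested members of the lists of ATF4 targets (23 genes), amino acid transporters (13) and aminoacyl-tRNA synthetases (18). Blue is lower and red higher than the control mean, and a star marks genes that passed. Most rows are blue on all 3 acetate arrays, and Qars is the starred gene that rose.

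Early response genes of antigen receptor signalling were lower at the time of harvest. Of 18 immediate early genes 8 fell (44.4%), 1 rose, and the list median was -0.91. With the mean of all probe sets of a gene 4 fell. Egr1, a zinc finger factor induced within minutes of receptor signalling, had 259, 414 and 213 with acetate and 584, 627 and 1031 in control cultures (-1.34 ± 0.30, adjusted p = 0.00764). The orphan nuclear receptor Nr4a1 had 152, 321 and 301 with acetate and 599, 587 and 500.1 in control cultures (-1.18 ± 0.27, adjusted p = 0.00903). Its relative Nr4a3 had 77.2, 78.0 and 94.2 with acetate and 504, 356 and 389.9 in control cultures (-2.27 ± 0.22, adjusted p = 0.000111), and the Nr4a3 call was lost when probe sets were averaged (adjusted p = 0.0766). These groups did not overlap, and in 19.7% of all genes tested the acetate arrays likewise lay wholly below. The genes were picked with these results known, so the trait adds no support.

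Of 13 genes downstream of IL-2 and STAT5, 4 fell (30.8%) and Prdm1 passed higher, a call lost without acetate replicate 1 or 3 or control replicate 2 or 3. Socs1 and Cish, inhibitors of cytokine receptor signalling, stood at 168, 154 and 247 with acetate against 417, 479 and 414 in control cultures (-1.22 ± 0.18, adjusted p = 0.000897) and at 848, 1254 and 1467 against 1999, 2205 and 2161 (-0.87 ± 0.19, adjusted p = 0.00664). Socs2 fell by 1.47 (adjusted p = 0.00360) and the kinase gene Pim1 by 0.82 (adjusted p = 0.00624). The receptor chain Il2ra did not pass (0.04 ± 0.25, adjusted p = 0.922). Il7r, the receptor for the survival cytokine IL-7, fell to 289.6, 412 and 595 with acetate, against 1041, 1016 and 1057 in control cultures (-1.32 ± 0.29, adjusted p = 0.00726). Klf2, a factor that keeps T cells recirculating, fell to 24.9, 63.8 and 106, against 475, 281 and 289.5 in control cultures (-2.54 ± 0.44, adjusted p = 0.00208).

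Of 7 genes for acetate uptake, sensing and activation, 2 rose and 1 fell. The acetate receptor gene Ffar2 had signals of 22.5, 21.8 and 33.0 with acetate and 20.0, 18.7 and 26.9 in control cultures (0.20 ± 0.34, adjusted p = 0.712), and its groups overlapped. Acss1, the mitochondrial enzyme that activates acetate, did not pass (-0.03 ± 0.29, adjusted p = 0.949). Acss2, the enzyme of the cytosol and nucleus, was higher on each acetate array, at 75.3, 103 and 92.2 against 48.2, 47.1 and 50.1 in control cultures (0.85 ± 0.26, adjusted p = 0.0346). All acetate arrays lay above all control arrays in 21.3% of all genes tested. The Acss2 call was lost without acetate replicate 2 or 3 or any 1 control array (adjusted p 0.0729 to 0.114). Bsg, the chaperone of the monocarboxylate transporters, rose by 1.12 ± 0.18 (adjusted p = 0.00123). Slc16a1, such a transporter of acetate and lactate, fell by 0.80 (adjusted p = 0.0261), a call lost without acetate replicate 2 or 3 or any 1 control array. Fatty acid synthase, encoded by Fasn, had 330.3, 228 and 317 with acetate and 646, 647 and 741 in control cultures (-1.22 ± 0.21, adjusted p = 0.00204). In the list of fatty acid synthesis 3 of 13 members fell (23.1%).

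Fatty acid oxidation was the metabolic list with the largest share of risen members among the 5 lists compared, which also covered fatty acid synthesis, the citric acid cycle, the respiratory chain and glycolysis. Of its 17 genes 8 rose (47.1%, against 11.5%), with a median of 0.52. Acadvl, the very long chain acyl-CoA dehydrogenase, had 656, 773 and 559 with acetate and 289, 342 and 395 in control cultures (0.95 ± 0.16, adjusted p = 0.00187). Acaa2, the mitochondrial thiolase, had 462, 400.4 and 337 with acetate and 206, 205 and 217 in control cultures (0.91 ± 0.15, adjusted p = 0.00151). In the citric acid cycle 6 of 23 genes rose (26.1%), among them Cs, citrate synthase (0.77 ± 0.15, adjusted p = 0.00326), and Mdh1, the cytosolic malate dehydrogenase, at 1807, 1981 and 1668 with acetate and 778, 707 and 877 in control cultures (1.21 ± 0.15, adjusted p = 0.000278). In the respiratory chain 5 of 21 rose (23.8%). These calls depended on whether the arrays were scaled. On the signals as deposited 0 genes of fatty acid oxidation and 0 of the respiratory chain rose. In the citric acid cycle 1 did (Mdh1). With trimmed-mean scaling 8 rose in fatty acid oxidation, 6 in the citric acid cycle and 7 in the respiratory chain. The median of the citric acid cycle list was -0.17 on the signals as deposited, where the median of all genes was -0.29. After quantile normalisation it was 0.11, where the median of all genes was near 0. Of 17 glycolysis genes 1 rose and 1 fell. The muscle-type phosphofructokinase gene Pfkm rose (0.84 ± 0.26, adjusted p = 0.0380), a call lost without acetate replicate 2, control replicate 1 or 2 or any 1 Treg array. The liver-type gene Pfkl had 323, 361 and 317 with acetate and 548, 773 and 778 in control cultures (-1.05 ± 0.23, adjusted p = 0.00648), and lactate dehydrogenase, Ldha, did not pass (-0.09 ± 0.11, adjusted p = 0.588).

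Among chromatin genes, 4 of 14 histone acetyltransferases and acetyl-lysine readers fell (28.6%), and 4 or 5 fell when any 1 array was left out. Crebbp, which encodes the acetyltransferase CBP, had 87.3, 105 and 93.0 with acetate and 232, 292 and 273 in control cultures (-1.45 ± 0.16, adjusted p = 0.000168). Kat2b fell by 1.09 (adjusted p = 0.00572), Kat6a by 0.86 (adjusted p = 0.00342) and Kat2a by 0.85 (adjusted p = 0.00582). The NAD-dependent deacetylase Sirt1 fell to 8.87, 6.93 and 11.0 with acetate, against 47.2, 25.0 and 34.2 in control cultures (-1.66 ± 0.28, adjusted p = 0.00177), while its relative Sirt2 rose by 0.95 ± 0.17 (adjusted p = 0.00208), a call lost on the signals as deposited (adjusted p = 0.0563).

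**Figure D4:**
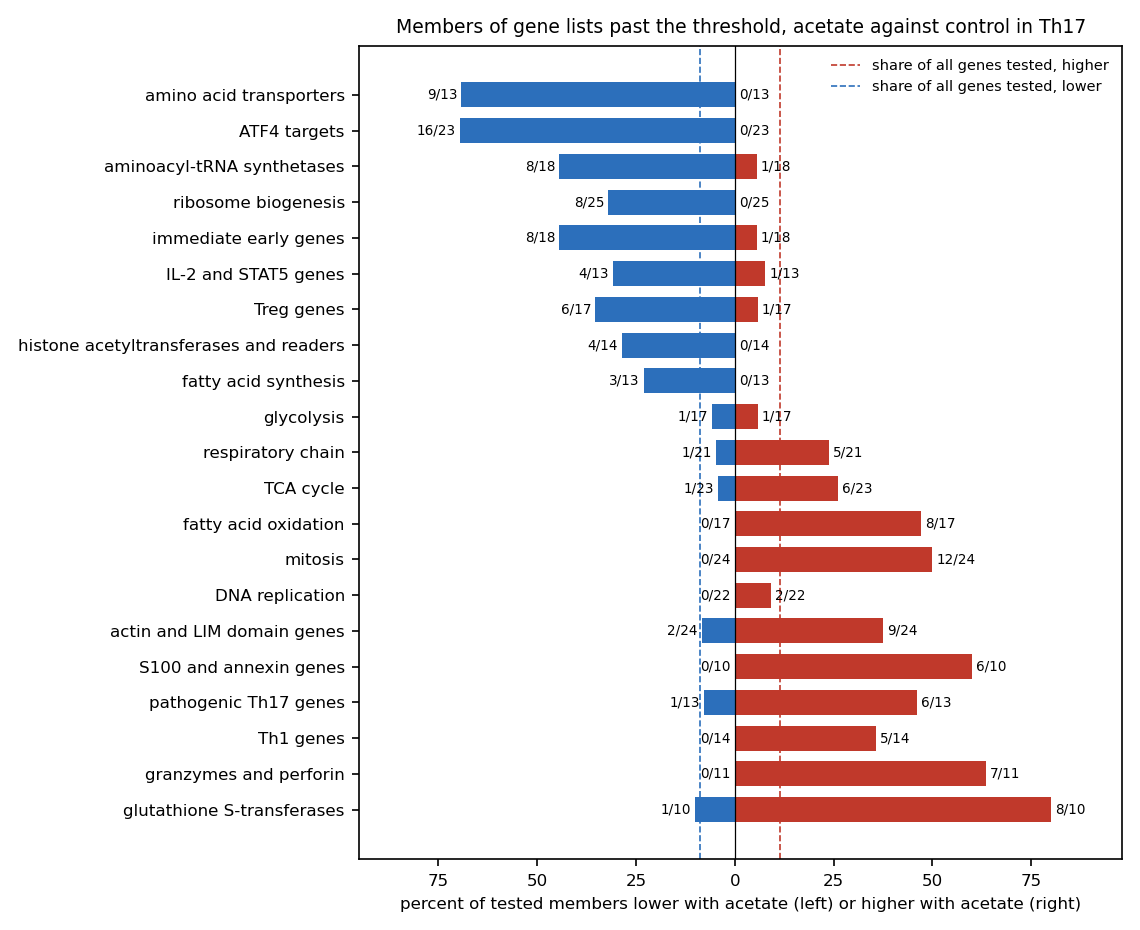
Percent of tested members of 21 gene lists that were lower (blue, left) or higher (red, right) with acetate in Th17 cultures, with the counts beside the bars. Dashed lines mark the shares among all genes tested, 8.81% lower and 11.5% higher. ATF4 targets and amino acid transporters reach furthest to the left, and glutathione S-transferases and granzymes furthest to the right.

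The cytoskeleton held the gene with the largest change. Pdlim4 encodes a PDZ and LIM domain protein that binds actinin on actin filaments. It had signals of 132, 334 and 160.2 with acetate, against 1.95, 1.53 and 1.66 in control cultures (5.37 ± 0.46, adjusted p = 7.49e-05). The control signals lay below the level of about 9.10 used as a filter, so only the direction is well determined, and the difference ranged from 4.03 to 6.16 with other pseudocounts. Gsn, the actin-severing protein gelsolin, had the smallest adjusted p of all genes tested, with 596, 644 and 529.6 with acetate and 78.3, 104 and 84.0 in control cultures (2.70 ± 0.16, adjusted p = 3.28e-06). Fscn1, the actin-bundling protein fascin, had 526, 340.4 and 220.5 with acetate and 42.8, 28.6 and 27.0 in control cultures (3.29 ± 0.35, adjusted p = 0.000145). Tpm2, a tropomyosin, rose by 3.36 ± 0.38 (adjusted p = 0.000168) and Vcl, the adhesion protein vinculin, by 1.91 ± 0.26 (adjusted p = 0.000528). In all, 9 of 24 actin and LIM domain genes rose (37.5%) and 2 fell (1 to 4 when any 1 Th17 array was left out). The membrane scaffold gene S100a10 rose to 5924, 5766 and 5164 with acetate, against 2419, 3022 and 2929 in control cultures (1.01 ± 0.10, adjusted p = 0.000111). Actb, beta-actin itself, did not pass (0.01 ± 0.09, adjusted p = 0.931).

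Glutathione S-transferases, which conjugate electrophiles to glutathione, had the largest share of members that rose among the 21 lists plotted. Of 10 tested, 8 rose (80.0%), with or without any 1 array. The call of Gsto1, which fell (-0.73 ± 0.19, adjusted p = 0.0164), was lost without acetate replicate 2 or control replicate 1 or 3. Gstt1 had 317, 394 and 282 with acetate and 64.3, 58.0 and 57.8 in control cultures (2.39 ± 0.28, adjusted p = 0.000187). Gstm1 had 120.5, 111 and 96.7 with acetate and 28.9, 29.9 and 23.6 in control cultures (1.88 ± 0.21, adjusted p = 0.000166). Members of the Gstm family share sequence, so signal could cross between their probe sets. Gstm5 rose by 2.47 ± 0.40 (adjusted p = 0.00135), Mgst3 by 1.66 ± 0.23 (adjusted p = 0.000528) and Gstk1 by 1.38 ± 0.23 (adjusted p = 0.00153). Ptgr1, a reductase of prostaglandins and reactive aldehydes, had 561, 247 and 235 with acetate and 34.6, 39.8 and 30.5 in control cultures (3.09 ± 0.29, adjusted p = 0.000111). Gclm, the modifier subunit of glutathione synthesis, fell by 0.79 (adjusted p = 0.00356), a call lost when probe sets were averaged (adjusted p = 0.0848). Mt3, a metallothionein best known from brain, rose to 497, 163 and 159 with acetate, against 16.8, 2.12 and 7.22 in control cultures (4.55 ± 0.50, adjusted p = 0.000166). The widely expressed metallothioneins Mt1 (0.48 ± 0.19, adjusted p = 0.0852) and Mt2 (0.27 ± 0.23, adjusted p = 0.435) did not pass. The zinc importer gene Slc39a14 rose by 1.33 ± 0.18 (adjusted p = 0.000462), and Slc39a8 fell by 1.67 (adjusted p = 0.00311).

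Mitotic genes were higher with acetate, and most of all on acetate replicate 1. Of 24 genes of mitosis 12 rose, against 11.5% of all genes tested, with a list median of 1.38. The count was 5 without acetate replicate 1, control replicate 1 or control replicate 3, and 6 without control replicate 2. Ube2c, the ubiquitin-conjugating enzyme of the anaphase-promoting complex, had 1630, 809 and 827 with acetate and 243, 248 and 224 in control cultures (2.10 ± 0.39, adjusted p = 0.00264). The spindle checkpoint kinase gene Bub1 had 105, 70.5 and 54.2 with acetate and 20.1, 13.3 and 18.6 in control cultures (1.93 ± 0.37, adjusted p = 0.00316). These 2 calls held without any 1 array. In both genes acetate replicate 1 was the highest of the 6 arrays. Of 22 genes of DNA replication 2 rose (9.09%), a share under the 11.5% of all genes, and 1 rose without acetate replicate 1 or control replicate 3. The summed signal of the list was 14610 on acetate replicate 1 but 6144 and 6444 on acetate replicates 2 and 3, against 7200, 6947 and 7273 in control cultures. The part of this array in the result was not tested. The proliferation marker Mki67 was at 870.0, 263 and 249 with acetate and 166, 181 and 171 in control cultures (1.15 ± 0.41, adjusted p = 0.0641) and did not pass.

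Receptors that steer T cells between tissues changed individually. Cxcr5, which guides cells to follicles, rose to 100.0, 164 and 110.1 with acetate, against 24.9, 25.7 and 26.4 in control cultures (2.12 ± 0.29, adjusted p = 0.000528). Cxcr6 fell to 14.3, 15.7 and 49.5, against 195, 77.8 and 123 in control cultures (-2.30 ± 0.42, adjusted p = 0.00271). Ccr6, the chemokine receptor typical of Th17 cells, did not pass (0.47 ± 0.31, adjusted p = 0.307). The integrin chain gene Itgal, which forms LFA-1, fell by 0.88 (adjusted p = 0.00187). Of 8 Gimap genes, lymphocyte GTPases that sustain T cell survival, 3 fell (Gimap3, Gimap5 and Gimap8, or 6 genes without acetate replicate 3) and Gimap7 rose, a call lost without any 1 of 4 Th17 arrays. Gimap5 had 44.8, 51.1 and 52.4 with acetate and 118, 100.4 and 117 in control cultures (-1.13 ± 0.17, adjusted p = 0.000962).

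Markers of the labelled cells and of other cells were compared across the 6 arrays. Of 10 CD4 T cell markers 9 were tested, and their summed signal was 10920 to 15060 with acetate and 16870 to 18500 in control cultures. Of these, 4 passed lower (Cd2, Cd5, Cd3d and Thy1) and Cd28 higher. The lower calls were 2 without acetate replicate 1 or control replicate 3, and 1, Cd2, without control replicate 1 or with trimmed-mean scaling. Cd2, an adhesion receptor of T cells, had 872, 1321 and 2229 with acetate and 2929, 2821 and 3149 in control cultures (-1.11 ± 0.24, adjusted p = 0.00648). The CD8 markers summed to 180 to 332 with acetate and 52.4 to 179 in control cultures, of which Cd8b1 rose (1.77 ± 0.29, adjusted p = 0.00146) while Cd8a did not pass (0.54 ± 0.54, adjusted p = 0.519). Of 7 dendritic cell markers 4 were tested, with a summed signal of 1351 to 2247 with acetate and 564 to 685 in control cultures. The MHC class II genes Cd74 (1.60 ± 0.36, adjusted p = 0.00804) and H2-Aa (2.30 ± 0.36, adjusted p = 0.00112) rose, and H2-Ab1 passed higher in a call lost without any 1 of 5 arrays, whereas Itgax, which encodes CD11c, did not pass (-0.57 ± 0.46, adjusted p = 0.415) and Flt3, Siglech and Xcr1 lay under the filter on dim genes. The macrophage and monocyte markers summed to 116 to 191 with acetate and 81.5 to 102 in control cultures. Cd68, a lysosomal protein, rose (2.08 ± 0.39, adjusted p = 0.00285), while Adgre1, which encodes F4/80, did not pass (-0.36 ± 0.40, adjusted p = 0.570) and Cd14, Fcgr1, Itgam, Lyz2 and Mpeg1 lay under the filter. The neutrophil markers summed to 110 to 181 with acetate and 34.2 to 55.9 in control cultures, carried by the granule protease gene Prtn3 (3.92 ± 0.46, adjusted p = 0.000195). Elane, its neighbour in neutrophil granules, did not pass (0.24 ± 0.48, adjusted p = 0.760), and S100a8, S100a9, Mpo, Camp, Ltf, Ngp and Ctsg lay under the filter.

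The B cell markers summed to 293 to 807 with acetate and 867 to 1430 in control cultures, most of it from the immunoglobulin gene Ighm. Cd79a, Ms4a1, Cd22, Blk and Pax5 lay under the filter. Ighm passed lower, at -1.29, a call lost without acetate replicate 2 or control replicate 1 or 3, and with probe sets averaged. Other Ighm probe sets were at -1.27, 0.74 and 0.38. Cd79b, also tested, did not pass and had the opposite sign, and the median of these 2 genes was -0.40. The summed NK cell markers overlapped, at 641 to 1640 with acetate and 983 to 1669 in control cultures, and the median difference of the 4 tested was 1.05. Klre1, an NK cell receptor gene, rose (1.14 ± 0.29, adjusted p = 0.0162), a call lost without acetate replicate 3 (adjusted p = 0.0511), control replicate 2 (0.0524) or control replicate 3 (0.0663) and on the signals as deposited (0.105). Klre1 also rose in Treg (1.90 ± 0.36) and Th1 cultures (2.10 ± 0.36). The mast cell and basophil markers were lower, at 31.3 to 46.9 with acetate and 77.1 to 118 in control cultures, led by the receptor gene Kit (-1.59 ± 0.36, adjusted p = 0.00804). No erythroid marker passed the filter on dim genes. The part that these other cells had in the changes of the granzymes, Prtn3 and the MHC class II genes was not tested.

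In the Treg and Th1 cultures fewer genes passed, with 2 arrays a group. In Treg cultures, where 12.4% of genes passed, 743 genes (6.81% of those tested) rose and 612 (5.61%) fell, and in Th1 cultures, where 3.98% of genes passed, 221 (2.02%) rose and 214 (1.96%) fell. Of the genes that rose in Th17 cultures 441 also rose in Treg cultures, which is 35.1% of the Th17 calls and 59.4% of the Treg calls. Of those that fell 322 also fell in Treg cultures, 33.5% of the Th17 and 52.6% of the Treg calls. In Th1 cultures 136 of the genes that rose in Th17 also rose, 10.8% of the Th17 and 61.5% of the Th1 calls. Of those that fell 131 also fell, 13.6% and 61.2%. Passed or not, 91.9% of the genes that rose in Th17 had a positive difference in Treg cultures (51.5% of all genes). In Th1 cultures 81.2% did (51.0% of all genes). Of those that fell, 90.1% were negative in Treg (48.5% of all genes) and 82.4% in Th1 cultures (49.0%). The Treg and Th1 counts rested on few arrays, at 203 and 146 without Treg acetate replicate 1, and at 46 and 26 without Th1 acetate replicate 2.

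In all 3 subsets 89 genes rose and 92 fell. Mt3 was among those that rose, by 4.55 in Th17, 4.04 ± 0.62 in Treg (adjusted p = 0.00178) and 4.28 ± 0.62 in Th1 cultures (adjusted p = 0.00528). Gsn rose by 2.70, 1.74 ± 0.20 (adjusted p = 0.000459) and 1.10 ± 0.20 (adjusted p = 0.0134) in the same order. Klf2 fell in each subset, at -2.54 in Th17, -2.88 ± 0.54 in Treg (adjusted p = 0.00489) and -2.45 ± 0.54 in Th1 cultures (adjusted p = 0.0299). Gstm1, Gstm5, Mgst3, Ptgr1 and Vcl also rose in all 3 subsets, and Trib3, Crebbp, Nr4a3, Slc6a9 and Tnfsf8 fell in all 3. These genes were picked out of the 89 and 92 because the results above name them.

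Differences between subsets were tested as interactions in the same fit. The response of Th17 cultures differed from that of Treg cultures in 51 genes (0.467% of those tested), 20 with a higher effect in Th17 (0.183%) and 31 with a lower one (0.284%). Without Treg acetate replicate 1 these counts were 4 and 4, and without Treg control replicate 2 they were 3 and 7. Pdlim4 was among the 20, with a Th17 minus Treg difference of 4.38 ± 0.73 (adjusted p = 0.0172). It was lost without any 1 of the 4 Treg arrays (adjusted p 0.066 to 0.136), without control replicate 2 (0.056) or 3 (0.0588) of Th17 cells and with the replicate block (0.0588). In Treg cultures its signals were 168 and 207 with acetate and 97.2 and 87.3 in control cultures.

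Ms4a4b, a tetraspan membrane protein of T cells, rose in Th17 by 1.25 and fell in Treg cultures, at -1.76 ± 0.26 (difference 3.01 ± 0.34, adjusted p = 0.00293). Its signals were 963, 1358 and 864 with acetate and 615, 366 and 368 in control cultures of Th17 cells, and 1136 and 1497 with acetate and 4615 and 4258 in control cultures of Treg cells. Adgre5, the adhesion receptor CD97, showed the same pattern, with 1.21 in Th17 and -0.67 ± 0.18 in Treg cultures (difference 1.89 ± 0.23, adjusted p = 0.00329). That Adgre5 difference did not pass on the signals as deposited (adjusted p = 0.0896). Cd9, a tetraspanin, rose in Th17 cultures to 399.8, 376 and 249 with acetate, against 73.9, 64.2 and 75.6 in control cultures, and was at 0.30 ± 0.22 in Treg cultures (adjusted p = 0.425; difference 1.88 ± 0.29, adjusted p = 0.0141). The Cd9 difference was lost without any 1 of the 4 Treg arrays (adjusted p 0.0656 to 0.0921) and on the signals as deposited (0.0968).

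Il24 rose in both, by 1.73 in Th17 and by 6.30 ± 0.43 in Treg cultures, and the effect was smaller in Th17 (difference -4.57 ± 0.56, adjusted p = 0.00329). Its Treg signals were 2063 and 1095 with acetate and 18.5 and 14.1 in control cultures. Cysltr1, a receptor for cysteinyl leukotrienes, and Enah, an actin polymerisation factor, fell in Th17 and rose in Treg cultures. The Th17 minus Treg differences were -3.79 ± 0.45 (adjusted p = 0.00329) for Cysltr1 and -3.44 ± 0.37 (adjusted p = 0.00293) for Enah. Fabp5, a fatty acid carrier, fell in Th17, at -0.65, and rose in Treg cultures by 0.91 ± 0.17 (difference -1.56 ± 0.22, adjusted p = 0.00949), a difference lost without Treg acetate replicate 1 (adjusted p = 0.0921) or Treg control replicate 1 (0.052). Pcx, which encodes pyruvate carboxylase, was at -0.25 in Th17 (adjusted p = 0.420) and rose by 2.05 ± 0.25 in Treg cultures (difference -2.30 ± 0.32, adjusted p = 0.00945), lost without Treg acetate replicate 1 (adjusted p = 0.0921). Of the genes described above, Stc2 also differed between the subsets (-2.42 ± 0.45, adjusted p = 0.0310), as did Pfkl (-1.82 ± 0.36, adjusted p = 0.0473). Both were lost without any 1 of the 4 Treg arrays (adjusted p 0.0714 to 0.248 for Stc2 and 0.128 to 0.252 for Pfkl), without 5 of the 6 Th17 arrays in turn and with no trend in the fit, and Pfkl also with a pseudocount of 1 (0.052). For Il17a the difference was 1.44 ± 0.47 (adjusted p = 0.246), for Csf2 -2.54 ± 0.82 (adjusted p = 0.244) and for Gzmb 2.38 ± 0.65 (adjusted p = 0.154). None of these 3 passed, so a larger change of these genes in Th17 than in Treg cultures was not shown.

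The response differed from that of Th1 cultures in 4 genes (0.0366%), all with a higher effect in Th17. They were Lrmp, an endoplasmic reticulum membrane protein of lymphocytes (1.55 ± 0.23, adjusted p = 0.0439), the adhesion molecule gene Epcam (2.51 ± 0.36, adjusted p = 0.0439), the respiratory chain subunit gene Cox7a1 (2.80 ± 0.41, adjusted p = 0.0439) and the metalloproteinase inhibitor gene Timp2 (2.88 ± 0.43, adjusted p = 0.0439). Lrmp had signals of 281, 217 and 214 with acetate and 88.2, 74.7 and 85.4 in control cultures of Th17 cells, and 423 and 381 with acetate and 407 and 439.5 in control cultures of Th1 cells. Lrmp also differed between Th17 and Treg cultures (1.63 ± 0.23, adjusted p = 0.00949), a difference lost without Treg acetate replicate 1 (adjusted p = 0.0976) or Treg control replicate 2 (0.079) and on the signals as deposited (0.185). No gene passed with a lower effect in Th17 than in Th1 cultures in limma, and 698 did at an unadjusted p under 0.05. The 4 calls were lost without acetate replicate 2 or any 1 of the control arrays of Th17 cells, any 1 of the 4 Treg arrays, Th1 acetate replicate 2 or Th1 control replicate 2. When Th1 acetate replicate 1 was left out 370 genes passed higher and 156 lower, and when Th1 control replicate 1 was left out 89 and 117 did.

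**Figure D5:**
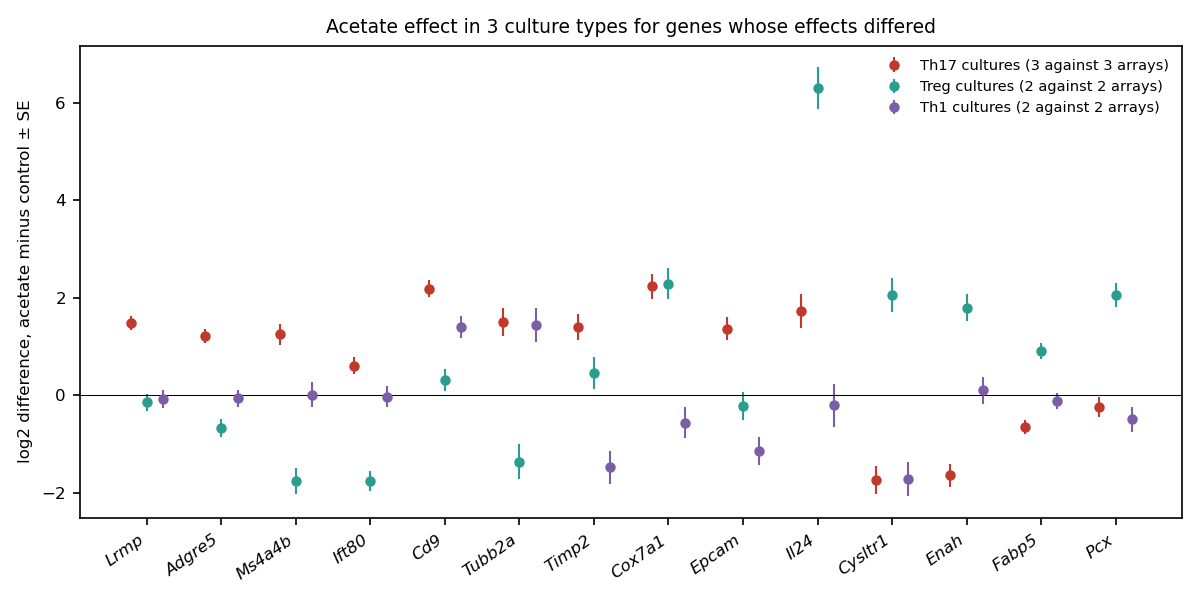
Log2 difference between acetate and control (± SE, vertical axis) in Th17 (red, left), Treg (green, middle) and Th1 cultures (purple, right) for 14 genes whose effects differed between subsets. Lrmp, Adgre5, Ms4a4b and Cd9 lie above 0 in Th17 cultures, and Il24 reaches 6.30 in Treg cultures, against 1.73 in Th17 cultures.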

How the data were processed

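Gene expression was measured on 14 Affymetrix arrays of mouse CD4 T cell cultures, in 6 groups taken from the array titles. The authors deposited 1 linear intensity per probe set and array, from MAS5 according to the submitters' processing notes, whose version and scaling target no source used here gives. Of 45101 probe sets, 34945 had 1 gene symbol in the platform annotation, 932 had several and 9160 none. Each gene was represented by its brightest probe set on average. Values were quantile normalised, taken as log2(signal + 3) and filtered at the 40th percentile of gene means, which left 10916 of 18193 genes. Group means over all 14 arrays were fitted with limma 3.58.1 in R 4.3.3 (eBayes with trend). The code of the fit was checked on simulated data with independent normal noise and no array effects or pairing. That check cannot show how far the calls on the real arrays hold. Arrays carry no count, so their number limits the precision.

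The members and gene lists (55 lists, 722 of 771 symbols used) were chosen with earlier results of these data known. The genes named were drawn from the 15 largest changes in each direction with groups that did not overlap and from the lineage and acetate genes. Up to 6 changed members and the head of each list were added. So were the 8 genes with the smallest p in each direction of a subset difference. Not all of these genes are described. Of the largest changes, Fxyd7, Mapk13 and Muc1 (higher) and Prss12, Dhrsx, Apobec1 and 4930431P03Rik (lower) were left out. Other members were named after their values were seen. Promoter sequences are from RefSeq (GRCm38.p6). Genes without a probe set of 1 symbol were not analysed here. Same-numbered acetate and control arrays deviated together with correlations of 0.150, 0.159 and -0.06. Arrays with unlike numbers gave -0.19 to 0.05. The numbers were to be used as pairs only if every same-numbered correlation passed a set level, so the main fit did not use them. This rule cannot exclude that the arrays were paired. Alternatives covered scaling, pseudocount, filter, probe set rule, trend, arrays in the fit, replicate block and leaving out each array.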

Additional observations from a re-analysis of the deposited data

Results flagged for a closer look

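The acetate effect differed between Th17 and Treg cultures by the interaction test for the 16 genes listed here. They were picked for the smallest p in each direction. Other named genes also passed this test, among them Pdlim4, Lum, Stc2 and Pfkl, which are described in other paragraphs. Among the 16, the effect was higher in Th17 for Ms4a4b (3.01 log2 units), Tubb2a (2.86), Ift80 (2.37), Adgre5 (1.89), Cd9 (1.88), Ndrg3 (1.69), Lrmp (1.63) and Foxp1 (1.34). It was lower in Th17 for Il24 (-4.57), Cysltr1 (-3.79), Enah (-3.44), Alpk2 (-2.63), Jcad (-2.63), Fam217b (-2.63), Pcx (-2.30) and Fabp5 (-1.56). Tubb2a, a beta-tubulin, rose in Th17 by 1.50 and fell in Treg cultures by 1.36. Its difference was lost without Treg acetate replicate 1 (adjusted p = 0.122), without Treg control replicate 2 (0.11) and with the mean of probe sets (0.112). That of Ndrg3 was lost as deposited (0.185), with the mean of probe sets (0.106), and without Treg acetate replicate 1, either Treg control array or Th17 control replicate 3 (0.0537 to 0.122). That of Alpk2 was lost without Treg acetate replicate 1 (0.0921) or Treg control replicate 2 (0.0893). That of Jcad was lost without these same arrays (0.0508 and 0.0776) and with the mean of probe sets (0.243). Foxp1, a factor of T cell quiescence, did not pass in Th17 cultures (0.29) and fell by 1.05 in Treg cultures, and its difference did not pass on the signals as deposited (adjusted p = 0.372), without Treg acetate replicate 1 (0.122) or without Treg control replicate 2 (0.0982).

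The effect differed between Th17 and Th1 cultures for Timp2 (2.88), Cox7a1 (2.80), Epcam (2.51) and Lrmp (1.55). Epcam rose in Th17 by 1.37 and fell in Th1 cultures by 1.15. With the Th17 arrays normalised and fitted alone in limma, Epcam was at 0.16 and did not pass (adjusted p = 0.755). In that setting the brightest probe set was chosen anew, so another probe set may stand for the gene. The other Epcam probe set was at 0.15 with all arrays in the fit. That value thus does not show if the rise of the reported probe set depends on normalising alone. No group held the 4 or more arrays needed to look for single arrays far from the others.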

How the results depend on the processing

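Of 225 named genes that passed, 148 passed without any single array, 123 under every other setting and 109 under all of these. These 225 were selected partly for large changes and include genes not described above, so their counts do not stand for all calls. Of all genes that rose, 62.5% still passed without control replicate 1 and 65.7% without control replicate 3. Of all that fell, 55.9% and 53.4% did. On the signals as deposited, 467 genes passed higher and 1461 lower in Th17, 252 and 298 in Treg, and 45 lower in Th1 cultures. The replicate block gave 1068 higher and 730 lower in Th17, 395 lower in Treg, and 125 and 90 in Th1 cultures. Whether the replicate numbers pair the arrays was not settled. In Th1 cultures 119 passed lower with the mean of probe sets, 132 with no filter and 118 with no trend. Genes higher in Th17 than Treg numbered 8 as deposited, 33 over every probe set and 31 with the median pseudocount, and lower ones 15 with no trend. Genes higher in Th17 than Th1 numbered 2 with the mean of probe sets, 1 with trimmed-mean scaling, 7 with the median pseudocount, and 0 as deposited, at the 60th percentile filter, with no filter, no trend, pseudocount 1 or the block (limma; 900 at an unadjusted p under 0.05). Lower ones numbered 11 as deposited, 2 over every probe set, 1 with the mean and 2 with the median pseudocount.

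Leaving out 1 array gave 802 to 1401 higher and 519 to 1124 lower in Th17, 203 to 898 and 146 to 738 in Treg, and 46 to 336 and 19 to 652 in Th1 cultures. It gave 3 to 42 higher and 4 to 56 lower for Th17 minus Treg, and 0 to 370 and 0 to 156 for Th17 minus Th1. The lone array of a pair was then assumed to vary like the other groups.

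With the mean of probe sets, 18 of the 1255 genes that rose and 11 of the 962 that fell took the opposite sign, Irf4 (0.25) among them, and at most 2 did under any other setting. The other named genes that changed sign had not passed. Ifng was -0.16 as deposited and -1.06 to 0.93 when 1 array was left out (-0.47 without control replicate 2). Il2 was -0.77 to 0.19 when 1 array was left out, and Ffar2 -0.047, Foxp1 -0.02 and Ndrg3 -0.11 as deposited. Acss1 was 0.012 with trimmed-mean scaling, 0.03 without acetate replicate 1 and 0.20 without control replicate 1. Alpk2 was -0.26 to 0.069 when 1 array was left out. Apart from the differing array sets, the cause was not tested. Genes near background have only a poorly determined size of change.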

Other observations

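Lysosomal proteases and survival regulators were among the gene groups not described above. Of 16 lysosomal genes 5 rose (31.2%, against 11.5% of all genes tested), 8 without acetate replicate 1 and 2 on the signals as deposited. Lgmn, the asparaginyl endopeptidase legumain, had signals of 158, 170.2 and 116 with acetate and 29.6, 24.0 and 16.8 in control cultures (2.52 ± 0.45, adjusted p = 0.00216 in limma). It also rose in Treg (2.49 ± 0.55) and Th1 cultures (3.30 ± 0.55). Of 14 genes of the Bcl2 family 3 rose and 3 fell (21.4% each, against 11.5% and 8.81% of all genes). The count lower was 0 without acetate replicate 1, control replicate 1 or control replicate 2, and the count higher was 1 on the signals as deposited. Nr1d2, a repressor in the circadian clock, fell to 1.30, 18.7 and 24.7 with acetate, against 101, 94.8 and 86.7 in control cultures (-2.82 ± 0.54, adjusted p = 0.00338). Hspb1, a small heat shock protein, had 146, 138 and 135 with acetate and 46.0, 34.0 and 25.3 in control cultures (1.94 ± 0.24, adjusted p = 0.000268).

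Several of the largest changes fell outside these groups. Npl, which breaks down sialic acid, had 126, 40.9 and 43.2 with acetate and 5.65, 1.87 and 1.01 in control cultures (3.53 ± 0.41, adjusted p = 0.000195). Lum, the matrix proteoglycan lumican, had 104, 139 and 104 with acetate and 13.8, 6.75 and 8.41 in control cultures (3.26 ± 0.41, adjusted p = 0.000301), and its effect was higher than in Treg cultures (3.57 ± 0.65, adjusted p = 0.0274). The Lum difference between subsets was lost without Treg acetate replicate 1 (adjusted p = 0.205) or Treg control replicate 2 (0.197), without acetate replicate 1 or 2 or control replicate 2 or 3 of Th17 cells (0.0521 to 0.0877) and with a pseudocount of 1 (0.0631). Cd70, the ligand of CD27, rose to 215, 142 and 14.5, against 10.9, 1.20 and 12.8 in control cultures (3.08 ± 0.74, adjusted p = 0.0118), a call lost without acetate replicate 2 (adjusted p = 0.0544) or control replicate 2 (0.0559). The unnamed transcript A630023P12Rik had the largest decrease, to 11.3, 1.67 and 3.58 with acetate, against 114, 111 and 125 in control cultures (-3.98 ± 0.41, adjusted p = 0.000131). It also fell in Treg (-3.77 ± 0.50) and Th1 cultures (-3.34 ± 0.50).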
